A study of Triticum aestivum with 8 samples.

Results

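In imbibed bread wheat embryos, 135 of the 43603 probes on the array kept about their dry-seed level after 16 h and then lay clearly lower at 24 h. A level here is the log2 processed signal of a probe minus the 75th percentile of its array, so 0 is the signal of that percentile and 1 unit is 2-fold. The members were chosen by these levels. A probe was a member when it was well above background on all 5 dry-seed and 16 h arrays, when its 16 h mean lay within 1 unit of its dry-seed mean, and when its 24 h mean lay at least 1.5 units below its 16 h mean. The rule therefore used the levels of all 3 groups, and every difference between groups given for the members describes how they were chosen, with no test.

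Dry embryos hold messenger RNA made while the seed matured. After water uptake this stored RNA is translated and degraded while new transcription begins, and the emergence of the radicle marks the end of germination. The arrays measure the level of a transcript in the RNA pool and do not separate stored RNA from newly made RNA.

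The tissue was the embryo of the cultivar Norin61, from seeds kept on wet cotton in darkness at 25 °C. The groups were dry seed (2 arrays), 16 h of imbibition (3 arrays) and 24 h of imbibition (3 arrays), with the hours taken from the sample titles, since the description fields of the imbibed samples give 8 h and 16 h instead. Seeds with a radicle under 3 mm at 16 h or under 7 mm at 24 h had been discarded, so the imbibed groups hold only seeds that had germinated to that length. Each array carried the Cy3-labelled RNA of 1 pool of 7 embryos, made from 200 ng of total RNA. The sample records give 21 seeds per stage, and whether the pools of a group came from separate sowings is not stated. In pooled whole embryos, fewer cells of a type and less RNA per cell cannot be told apart.

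Between 25322 and 26165 probes were well above background on the dry-seed arrays, between 28889 and 31232 on the 16 h arrays and between 30646 and 32007 on the 24 h arrays. The 75th percentile itself lay at 265 and 248 intensity units on the dry-seed arrays, 1527, 1470 and 1181 at 16 h, and 1378, 1739 and 1635 at 24 h. No spot was saturated, and no member had a spot flagged as an outlier. The probes carry a sequence name and no description, and none of the 129 names of the members matched the gene table given for wheat. Members are therefore named by probe and sequence name, no function is given for any of them, and markers of embryo, endosperm, aleurone or leaf could not be read.

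Of the 24036 probes well above background on all dry-seed and 16 h arrays, 12030 had a 16 h mean within 1 unit of dry seed, and the members were 1.12% of these. A 24 h mean at least 1.5 units below 16 h was found for 693 of the detected probes. Of these, 178 had first gained at least 1 unit by 16 h, 380 had already lost at least 1 unit by 16 h, and the 135 members had done neither. By number of probes on this scale, a late loss from a level held to 16 h was thus the least frequent of these 3 patterns. The counts are not set against the number of detected probes that had gained or lost by 16 h.

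**Figure D1:**
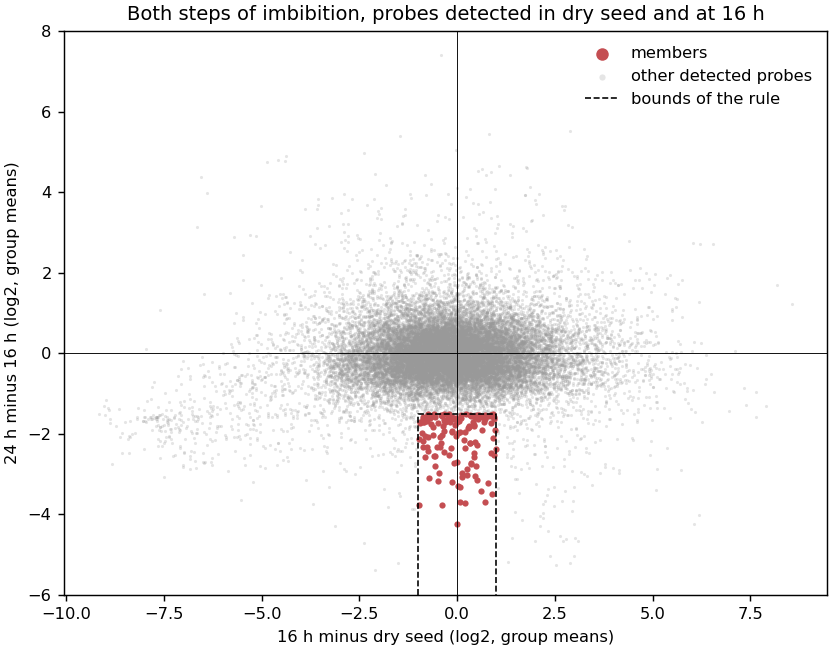
Difference of 24 h minus 16 h (vertical axis, log2, group means) against 16 h minus dry seed (horizontal axis, log2, group means), one point for each of the 24036 probes detected in dry seed and at 16 h. The 135 members (red) lie inside the dashed bounds of the rule, and the largest difference is -4.24.

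Over the members, the 24 h minus 16 h difference had a median of -1.90 and ran from -4.24 to -1.501, which is 3.72-fold lower at the median. The other 11895 probes held to 16 h had a median of -0.03 over the same step. At least 2 units separated the means of 59 members and at least 3 units those of 18. Both counts hold members that were not well above background on every 24 h array, so the size of their difference is uncertain. Among the 18 these were A_99_P430362, A_99_P265771, A_99_P046062, A_99_P265761 and A_99_P140568. The 16 h minus dry-seed difference ran from -0.98 to 0.99 with a median of -0.01, so members lay about evenly above and below their dry-seed level at 16 h.

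Setting 24 h against dry seed, the median difference was -2.14, with 121 members at least 1 unit and 75 at least 2 units below dry seed. All 3 arrays at 24 h lay below both dry-seed arrays for 134 members, a pattern shown by 42.6% of all tested probes. All 3 arrays at 24 h lay below all 3 arrays at 16 h for 133 members, against 31.6% of all tested probes. The fit with limma called 134 members lower at 24 h than at 16 h, with 6.78% of the 30833 tested probes called in that direction. It called none at 16 h against dry seed, where 52.1% of tested probes were called in either direction and 44 members had an adjusted p under 0.05 with a change under 2-fold. It called 120 members lower at 24 h than in dry seed, with 27.0% of tested probes called so. Nothing is read from these counts, since the rule used the same contrasts.

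Among the 10 members furthest below their 16 h mean at 24 h, A_99_P207246 (sequence TA53225_4565) stood at 4.70 and 4.69 in dry seed, at 4.08, 5.18 and 4.81 at 16 h, and at -0.43, 1.86 and -0.06 at 24 h. Every 24 h array was over 2 units below every 16 h array, the means differed by -4.24 or 18.8-fold, and the second 24 h array lay well above the other two. Without that array the difference was 30.7-fold. Leaving out the highest 24 h array can only raise a fold, and no fold without another array is given, here or in the probes below.

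A_99_P127580 (CA637855) stood at 3.58 and 3.45 in dry seed, at 2.51, 4.23 and 4.03 at 16 h, and at -0.86, 1.30 and -0.78 at 24 h. A_99_P308276 (TA84147_4565) stood at 2.30 and 2.03 in dry seed, at 1.90, 3.74 and 3.00 at 16 h, and at -1.44, 0.32 and -1.30 at 24 h. In both, the first 16 h array was the lowest of its group, the second 24 h array was the highest of its group, and the groups did not overlap. Their 24 h means were 13.0-fold and 12.9-fold below their 16 h means, and 21.2-fold and 19.0-fold without the second 24 h array.

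A_99_P492897 (AK330466) stood at 0.02 and 0.48 in dry seed, at -0.87, 1.48 and 0.73 at 16 h, and at -4.32, -1.70 and -3.83 at 24 h. A_99_P378362 (TA105128_4565) stood at -0.22 and -0.01 in dry seed, at -0.41, 1.61 and 1.12 at 16 h, and at -3.55, -1.36 and -3.27 at 24 h. A_99_P084965 (TA77306_4565) stood at 0.95 and 1.46 in dry seed, at 0.63, 2.69 and 2.13 at 16 h, and at -2.63, -0.06 and -2.11 at 24 h. These 3 repeated the same order of arrays, and the gap between the lowest 16 h array and the highest 24 h array was under 1 unit in each. Without the second 24 h array their differences were 23.0-fold, 18.1-fold and 18.2-fold, against 13.3-fold, 11.3-fold and 10.68-fold over all arrays.

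A_99_P063217 (CK195446) was 1 of the 2 members whose imbibed groups overlapped. It stood at -0.19 and 0.19 in dry seed, at -1.23, 0.17 and -0.06 at 16 h, and at -5.11, -1.06 and -6.27 at 24 h. The second 24 h array was above the first 16 h array, and the mean difference of -3.78 rested on the other two 24 h arrays.

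The remaining 3 of the 10 were dim at 24 h. A_99_P430362 (TC389196) stood at -3.32 and -3.25 in dry seed and at -4.55, -4.08 and -4.10 at 16 h, and was not well above background on any 24 h array. Set to the lowest signal of a detected probe on each 24 h array, its 24 h level was 7.25-fold below its 16 h level. That fold depends on how low signals are treated, since with another setting (normexp) the difference was -1.17. This setting corrected the background of the median spot signal by normexp and then added 50 intensity units to every spot. The added constant by itself makes differences of dim probes smaller, and its part was not tested. A_99_P046062 (CA613904) stood at -2.96 and -2.64 in dry seed, at -3.42, -2.47 and -2.45 at 16 h, and at -5.89, -4.95 and -7.38 at 24 h, with 2 of its 24 h arrays well above background. A_99_P265771 (TA71622_4565) stood at -3.82 and -4.44 in dry seed, at -4.69, -3.81 and -3.67 at 16 h, and at -6.56, -8.57 and -7.02 at 24 h, with 1 of its 24 h arrays well above background. The values of A_99_P265771 on the other 2 arrays at 24 h are below detection, so neither their order nor a fold is read from them.

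**Figure D2:**
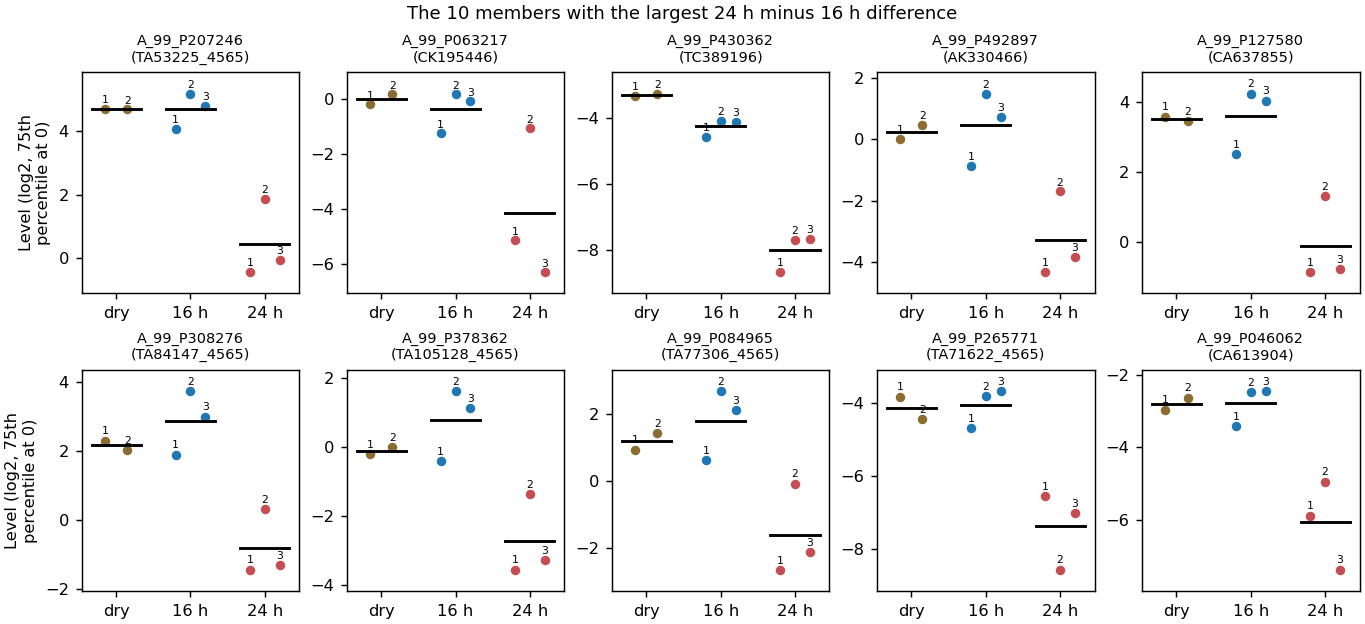
Level (log2, 75th percentile of the array at 0) on every array for the 10 members with the largest 24 h minus 16 h difference, with replicate numbers beside the points and bars at group means. Dry-seed and 16 h points lie at like heights, the 24 h points lie lower, and A_99_P063217 is the panel in which a 24 h point stands above a 16 h point. A_99_P430362 was not well above background on any 24 h array, and A_99_P265771 on only 1.

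At 24 h, 125 members were well above background on all 3 arrays, 7 on 2 arrays, 2 on 1 array and 1 on none. All 3 arrays detected 92.6% of the members, against 100% of the 11895 other probes held to 16 h and 99.2% of all probes detected in dry seed and at 16 h.

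Signal far above background was the case for the members with the highest 16 h means, which are given as changes within each probe, since probes bind their targets with different strength. A_99_P236641 (TA63504_4565) stood at 6.08 and 5.83 in dry seed, at 4.81, 5.60 and 5.64 at 16 h, and at 2.64, 3.07 and 2.68 at 24 h, a 24 h minus 16 h difference of -2.55. A_99_P271566 (TA73422_4565) stood at 4.27 and 4.28 in dry seed, at 3.91, 4.79 and 4.50 at 16 h, and at 1.18, 1.74 and 1.05 at 24 h, a difference of -3.07. Both had wide gaps between the imbibed groups relative to the spread within them.

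A_99_P271331 (TA73341_4565) stood at 4.29 and 4.33 in dry seed, at 3.60, 5.22 and 4.90 at 16 h, and at 0.85, 2.71 and 1.08 at 24 h. A_99_P271336 (TA73342_4565) stood at 4.01 and 3.87 in dry seed, at 3.09, 4.75 and 4.35 at 16 h, and at 0.51, 2.15 and 0.59 at 24 h. Array by array this pair moved alike, with differences of -3.03 and -2.98. A_99_P037749 (AK332537) and A_99_P146742 (TC414994) had smaller differences of -1.69 and -1.53.

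The steadiest members, judged by the larger within-group SD divided by the difference, were led by A_99_P352591 (TA97555_4565). It stood at 3.06 and 3.00 in dry seed, at 2.07, 2.42 and 2.45 at 16 h, and at -0.90, -0.57 and -0.90 at 24 h. Its means were -0.79 ± 0.19 at 24 h and 2.31 ± 0.21 at 16 h (SD, n = 3 each), 8.59-fold apart. A_99_P328676 (TA90141_4565) stood at 2.55 and 2.42 in dry seed, at 2.25, 2.26 and 2.54 at 16 h, and at 0.45, 0.37 and 0.43 at 24 h. In these 2 the arrays of a group lay close together, and the 24 h arrays lay far below the others. A_99_P274511 (TA74277_4565), A_99_P337271 (AK331876) and A_99_P507862 (TC435136) completed the steadiest 5, with differences of -1.56, -1.73 and -1.98. With the normexp setting these differences were -1.49, -1.64 and -0.96. Of the 5, A_99_P507862 was dim, at -3.74 and -3.72 in dry seed, so its steadiness does not extend to that setting and its added constant.

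The least steady was A_99_P469557 (DN829463), at 2.61 and 2.31 in dry seed, at 1.73, 2.56 and 2.63 at 16 h, and at -1.38, 3.05 and -1.82 at 24 h. Its second 24 h array was above every other array of the study for that probe, and it was the 1 member that limma did not call. A_99_P550727 (TC452535) and A_99_P152117 (CJ835344) were spread mainly by 1 array each, the second at 24 h (-3.65, against -5.88 and -5.87) and the first at 16 h (-2.50, against -0.07 and -0.98). A_99_P524272 (CJ634596) was spread the other way, with its second 24 h array lowest, at -0.12, -1.80 and -0.91 at 24 h against 0.42, 0.74 and 0.68 at 16 h.

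At the lower edge of the rule, A_99_P152502 (CJ857110), A_99_P064180 (AK332497) and A_99_P501447 (TC432352) passed with differences of -1.501, -1.501 and -1.508. A_99_P117295 (DR739154), A_99_P316491 (TA86521_4565) and A_99_P308136 (TA84097_4565) missed with -1.499, -1.496 and -1.495. The members are thus a slice of a continuous range, and 549 probes met the rule with a difference of at least 1 unit.

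The order of arrays within a group was not used by the rule. Of the members, 125 of 135 (92.6%) had the first 16 h array lowest at 16 h, against 35.2% of the other probes held to 16 h. The second 24 h array was the highest at 24 h for 101 members (74.8%), against 42.4% of the other held probes. Both applied to 95 members (70.4%), against 17.7%. On 2 named arrays, members thus lay nearer to the neighbouring time point than on the other arrays of the same group.

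Expressed from each probe's 16 h mean, the member medians were 0.01 and 0.05 on the dry-seed arrays, -0.45, 0.24 and 0.21 on the 16 h arrays, and -1.97, -1.65 and -1.99 on the 24 h arrays. For the other held probes the medians stayed between -0.04 and 0.03 on all imbibed arrays. The first 16 h array lay a median of 0.68 below the mean of the other two over the members, and the second 24 h array a median of 0.41 above the mean of the other two. The first gap was at least 1 unit in 26 members and the second in 23. By value, the second 24 h array was at least 1 unit below the others in 5 (A_99_P265771, A_99_P247101, A_99_P265761, A_99_P293611 and A_99_P524272). Of these 5, A_99_P265771 was well above background on 1 array at 24 h and A_99_P265761 on 2, so their order is not read. Among the 23, A_99_P575027 was so on 1 array, and A_99_P046062 and A_99_P353196 on 2. The median within-group SD was 0.29 at 24 h and 0.41 at 16 h over the members, against 0.12 at 24 h and 0.15 at 16 h over the other held probes, while the dry-seed arrays differed by medians of 0.18 and 0.13 in these sets.

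**Figure D3:**
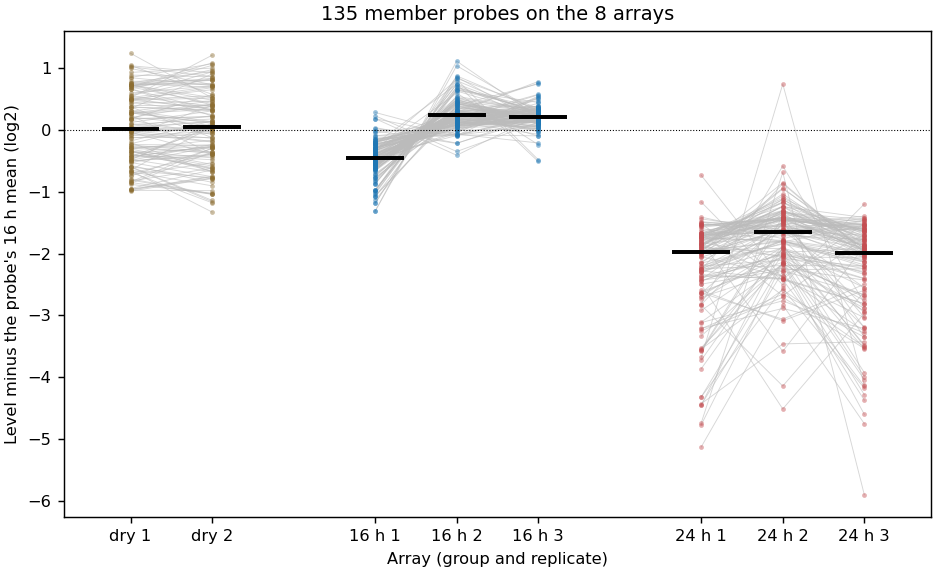
Level of each of the 135 members on each of the 8 arrays, minus the probe's mean over the 16 h arrays (log2). Grey lines join the arrays of a group for one probe and black bars are medians, which lie at -0.45 on the first 16 h array against 0.24 and 0.21 on the others, and at -1.65 on the second 24 h array against -1.97 and -1.99 on the others.

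The other late losses gave the same order at 16 h, with the first 16 h array lowest for 175 of the 178 probes that had first gained and for 334 of the 380 that had already lost. They split at 24 h, where the second array was highest for 167 of the 178 (93.8%) and for 139 of the 380 (36.6%). Across the 135 members the 2 gaps had a Pearson r of 0.35 and a Spearman rho of 0.36, and the gap at 24 h and the size of the 24 h minus 16 h difference had an r of 0.43 and a rho of 0.37. These describe probes that share the same 8 pools and have no p. The first and second 16 h arrays shared slide 1, and the second and last 24 h arrays shared slide 2. What set these 2 arrays apart was not tested. In the deposited log2 table, the values of the second and last 24 h arrays stand under each other's sample, so the number of the pool that stood apart at 24 h rests on the scanner files.

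These 2 arrays also bear on who is a member. Without the first 16 h array 217 probes met the rule, which hold 118 of the 135 members, while without the second 24 h array 162 did, which hold 130 members. Leaving out each array in turn gave 109 to 217 probes, and 68 members met the rule every time.

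Each slide held arrays of all 3 groups. On slide 1 the members had a median 24 h minus 16 h difference of -1.87 (range -5.07 to -0.70) and on slide 2 of -2.03 (range -4.12 to -1.19). Every member was lower at 24 h on both, but the rule used the arrays of both slides, so this is no separate reading. Their 16 h minus dry-seed medians were -0.12 and 0.19.

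Choosing probes on one slide and reading them on the other gives values from arrays that took no part in the choice. The rule applied to slide 1 alone chose 158 probes, of which 111 were members. On slide 2 all 158 were lower at 24 h than at 16 h, with a median of -1.89, and 130 (82.3%) again differed by at least 1.5 units, against 4.13% of all tested probes. There 124 (78.5%) also lay within 1 unit of dry seed at 16 h, against 46.8% of all tested probes. Applied to slide 2 alone, the rule chose 237 probes, of which 115 were members. On slide 1 their median was -1.55, with 216 (91.1%) lower at 24 h and 128 (54.0%) lower by at least 1.5 units, against 49.3% and 2.72% of all tested probes. The loss was thus read again on the other slide for most probes, with smaller values when slide 2 had done the choosing. Each reading rests on few arrays, since slide 1 held a single 24 h array and slide 2 a single 16 h array. Each slide also held a single dry-seed array. The first 16 h array was on slide 1 and the second 24 h array on slide 2.

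**Figure D4:**
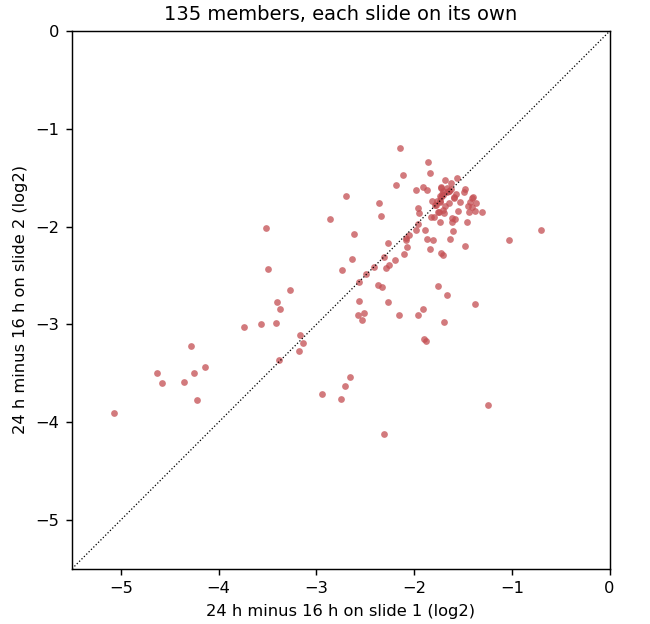
Difference of 24 h minus 16 h (log2) on slide 2 (vertical axis) against slide 1 (horizontal axis) for the 135 members, with the dotted line of equal values. All points are below 0 on both axes, with medians of -2.03 on slide 2 and -1.87 on slide 1. The members were chosen on the arrays of both slides together.

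For 7 of the members' sequence names the array holds more than 1 probe. Of the 18 probes that share their name with another member, 11 were members themselves, so the rule fixed their difference. The 7 that were not members were all lower at 24 h than at 16 h, 6 of them by at least 1 unit, with a median of -1.40 and a range of -1.52 to -0.99, against a median of -0.01 over all tested probes. These probes share the same pools and, by their name, the same sequence.

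AK332497 had 6 probes. The members A_99_P064180, A_99_P600267 and A_99_P621734 had 24 h minus 16 h differences of -1.501, -1.62 and -1.63, and the non-members A_99_P602573, A_99_P611487 and A_99_P621912 had -1.51, -1.52 and -1.45. From dry seed to 16 h the same probes parted, with -0.19, -0.03 and -0.08 for the members and 2.74, 2.07 and 2.09 for the non-members. A_99_P064180 stood at 5.85 and 5.89 in dry seed, at 5.21, 5.98 and 5.83 at 16 h, and at 3.97, 4.57 and 3.98 at 24 h. A_99_P602573 stood at 0.76 and 0.50 in dry seed, at 2.76, 3.61 and 3.73 at 16 h, and at 1.63, 2.43 and 1.51 at 24 h. All 6 probes thus ran together over the imbibed arrays, while 3 of them were far lower in dry seed than at 16 h. The probe positions are not given in the files used here, so where along the sequence these probes lie is not known.

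**Figure D5:**
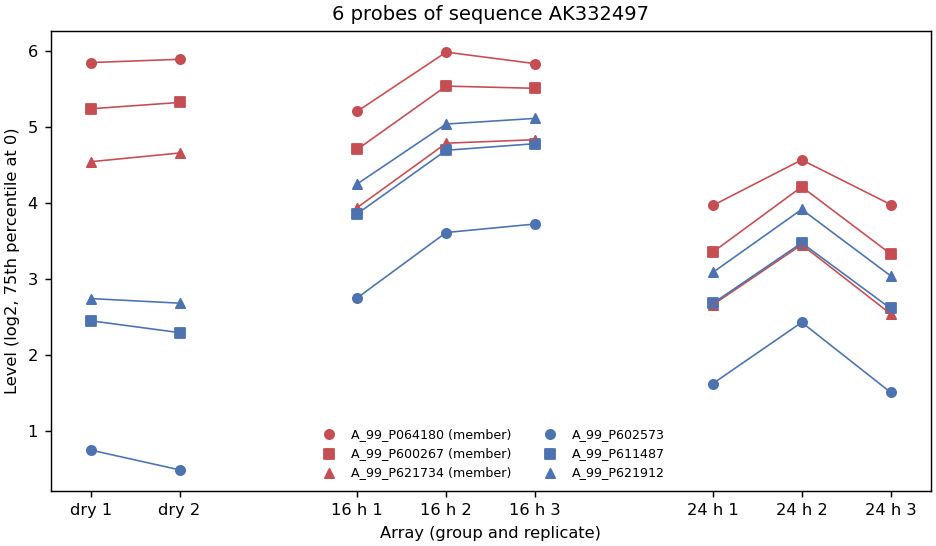
Level (log2, 75th percentile of the array at 0) of the 6 probes of AK332497 on the 8 arrays. The 3 members (red) keep their level in dry seed and at 16 h, the 3 other probes (blue) are 2.07 to 2.74 lower in dry seed than at 16 h, and all 6 are lower at 24 h than at 16 h; heights of different probes are not comparable.

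D16416 had 3 probes that parted in the same step. A_99_P489622 stood at 0.87 and 1.06 in dry seed, at 0.16, 1.20 and 0.91 at 16 h, and at -1.58, -1.66 and -2.06 at 24 h. A_99_P167739 stood at -1.21 and -1.44 in dry seed, at -1.11, -0.17 and 0.07 at 16 h, and at -2.30, -2.45 and -2.81 at 24 h. The other probe, A_99_P559332, which is no member, had already dropped by 4.75 at 16 h and was a further 0.99 lower at 24 h. The first 2 were members, and their second 24 h arrays were not the highest of the group.

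In the other 5 names every probe was within 1 unit of dry seed at 16 h. AK332422 had the members A_99_P413943 and A_99_P409142, with differences of -1.60 and -1.51, and a further probe, A_99_P217216, at -1.30. DQ334405 had A_99_P338101 and A_99_P089735 at -1.80 and -1.71, and TA97759_4565 had A_99_P353196 and A_99_P417917 at -2.59 and -2.48. The TA97759_4565 probes were dim, in dry seed as little as 0.43 and 1.21 above the lowest detected signal. With normexp their differences were -1.15 and -1.55, and those of the DQ334405 probes -1.46 and -1.41. For AK332537 the second probe, A_99_P295561, had -1.40, and for TA74412_4565 the member A_99_P274941 had -1.60 and the other, A_99_P457977, -1.21.

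Members also differed in how exactly they held the dry-seed level. In 73 the 16 h mean was within 0.5 of dry seed, in 29 it was more than 0.5 above and in 33 more than 0.5 below. Their median 24 h minus 16 h differences were -1.94, -1.64 and -1.82, and their median 24 h minus dry-seed differences were -2.002, -1.02 and -2.65. The first 16 h array was the lowest of its group in 68 of 73, 27 of 29 and 30 of 33, so the order of arrays was seen in all 3 classes, which were formed after the values were seen.

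The word kept refers to a share of the labelled RNA. Scaled instead to 8 spike-in probes, whose RNA is added in a fixed amount at labelling, all 135 members had a higher 16 h than dry-seed level, by a median of 2.88, while all tested probes had a median of 2.82. On that scale their median 24 h minus 16 h difference was -1.29, against 0.60 for all tested probes, and 102 members were lower by at least 2-fold. At 24 h 128 members were still above dry seed, by a median of 1.36 over all members, and the 7 below it were A_99_P207246, A_99_P063217, A_99_P430362, A_99_P492897, A_99_P127580, A_99_P346181 and A_99_P352591. The change of scale adds the same amount to every probe at each step, so the direction of both steps for all members follows from the rule and is no second reading of them.

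The dim members depended on how low signals were treated. With the normexp setting in place of the scanner's processed signal all 135 were lower at 24 h than at 16 h. Of these, 126 were lower by at least 1 unit, and 74 still met the whole rule. The setting adds 50 intensity units to every spot, which by itself makes differences of dim probes smaller. How much of the loss of members comes from that constant, and how much from the background estimate, was not tested. Split at their median level, 57 of the 68 brighter members met it, with a median difference of -1.80, and 17 of the 67 dimmer ones, with a median of -1.26. In dry seed 28 of the dimmer members lay within 2 units of the lowest detected signal.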

How the data were processed

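The deposited scanner files of 8 single-colour arrays were used. Per the file headers, Agilent Feature Extraction 10.7.3.1 made the processed intensity values by background subtraction within the array. The deposited series table holds log2 values, which matched log2 processed intensity minus the array's 75th percentile, centred per probe, and served as an alternative. Here the 75th percentile over non-control probes was subtracted on the log2 scale and the 43803 spots were averaged into 43603 probes. The rule kept outlier-flagged spots and the fit left them out. For the background shares, 30833 probes that were well above background throughout 1 group or more were fitted over all 8 arrays with limma 3.58.1 in R 4.3.3, and called at a Benjamini-Hochberg adjusted p under 0.05 and at least 2-fold. The fit was tested on simulated data. The members and lists were chosen with earlier results of these data known. Named probes were the 10 largest differences, the 10 highest 16 h means, 3 on each side of the threshold, names with several member probes, and the 5 steadiest and 5 least steady, and gene names could add none. Alternatives covered scaling, background, dim probes, spots, slide, replicate block, thresholds and each array left out. The number of arrays limits the precision, and p-values measure only the spread between these pools.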

Additional observations from a re-analysis of the deposited data

How the results depend on the processing

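The number of members, 135, became 26 with spike-in scaling (none of them shared, since nearly all probes were then higher at 16 h than in dry seed), 237 within slide 2, 549 and 59 with differences of at least 1 and at least 2, and 73 with 16 h within 0.5 of dry seed. Leaving out each array gave 109 to 217, the highest without the first 16 h array. It was 176 with quantile scaling, 182 with median scaling, 123 with the percentile of probes detected on all arrays, 96 with normexp, 125 with detection on all 8 arrays, 155 with slide as a term and 158 within slide 1. The median 24 h minus 16 h difference was -1.29 with spike-in scaling (-2.05 to -1.77 on leaving out arrays), and the median 16 h minus dry-seed difference was 2.88 (-0.16 to 0.24). The 2089 probes called lower at 24 h than at 16 h became 728 with spike-in scaling (8990 higher, against 3593), 1338 with normexp, and 0 within slide 1, where limma gave 8019 at an unadjusted p under 0.05, and 1918 within slide 2. Each slide has 4 arrays, 1 residual degree of freedom and lone arrays assumed to vary like the rest. These are 24 h and dry seed on slide 1, and 16 h and dry seed on slide 2. No limma count within either slide therefore says anything about the probes. Leaving out arrays gave 1737 to 2600. Calls at 16 h against dry seed, 16075, became 27608 with spike-in scaling and 25550 without the filter on dim probes (15777 to 16118 on leaving out arrays), and those at 24 h against dry seed, 17350, became 28765 and 26690 (17108 to 17417). Medians of all tested probes at 24 h against 16 h, 16 h against dry seed and 24 h against dry seed were -0.01, -0.06 and 0.04. They became 0.60, 2.82 and 3.54 with spike-in scaling, and -0.13, -0.19 and -0.21 with median scaling. The percentile of detected probes moved the second and last of them to 0.10 and 0.26, normexp to -0.67 and -0.64, no filter to -0.73 and -0.68, and detection on all 8 arrays to -0.19 and -0.19. With the replicate block 134 probes met the rule, 130 of them members, and 2073 were called lower. Deviations of same-numbered 16 h and 24 h arrays correlated at 0.12, 0.09 and -0.04, and those of unlike-numbered arrays at -0.16 to 0.13. With so few arrays these values do not tell whether the numbers pair the pools. The block changed no other count by over 1.5 times. Of the 41 named probes, A_99_P316491, which missed the rule, had 0.00202 within slide 1. The other settings of the named probes kept the sign, 740 within the spread between arrays and 38 outside it.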

Other observations

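A further 254 probes were held to 16 h by the same rule and were then at least 1.5 units higher at 24 h. This set was formed after the values were seen. On it the order of arrays was the mirror image of that in the members. The first 16 h array was the highest of its group for 223 of the 254 (87.8%), against 45.7% of the probes held to 16 h that are no members. The second 24 h array was the lowest of its group for 214 (84.3%), against 37.7% of the same probes, among which the 254 are counted. From each probe's 16 h mean, the medians were 0.42, -0.24 and -0.19 on the 16 h arrays and 2.09, 1.65 and 2.03 on the 24 h arrays. Probes that gained late thus also lay nearer to the neighbouring time point on the same 2 arrays, and the cause was not tested.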
